A study of Mus musculus with 4 samples.

Results

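Transcripts of the Zscan4 cluster and of other genes of the 2-cell-like state were measured in mouse embryonic stem cells null for both B-type lamins (dKO) and in wild-type cells (wt). The genes were Zscan4c, Zscan4d, Zscan4f, Tmem92, Zfp352 and Tcstv3, found in the deposited count table by matching Ensembl gene IDs to mouse symbols. They were chosen for their difference between dKO and wt cells in earlier results of these data, so their values in that contrast are a description and carry no test. Of the 6 genes, 5 were found among 37991 rows, and Tcstv3 was not analysed here. Each genotype had 2 biological replicates, and all 4 libraries carried the strain label ZHBTc4, an embryonic stem cell line in which Pou5f1 is known to be supplied by a tetracycline-repressible transgene. The labels name no treatment, and each genotype may be 1 line, so loss of B-type lamins and a difference between lines cannot be told apart. Total counts were 16697970 and 16584014 in the dKO libraries and 12899964 and 14941952 in the wt libraries.

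The 2-cell-like state is a rare and transient state of mouse embryonic stem cell cultures, in which cells transcribe genes that are otherwise active at zygotic genome activation in the 2-cell embryo. Zscan4 proteins carry a SCAN domain and zinc fingers, mark this state, and are known for their part in telomere maintenance in embryonic stem cells. The Zscan4 genes lie side by side as near-identical copies on chromosome 7. Duxf3 (Dux), a double homeobox transcription factor, is known to activate the programme, and several chromatin regulators are known to hold it back.

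The copies differ by few bases, which bears on how reads could be assigned to them. The 250 bases before the annotated gene start of the 3 Zscan4 copies are shown with their TATAAA element in capitals, and those of Zfp352, which has other sequence there, with a repeated GACAACACAC in capitals. All are RefSeq sequences on build GRCm38.p6, whose coordinates are not those of the deposited table. Zscan4c lies on the plus strand (chr7:11005495-11005744), Zscan4d on the minus strand (chr7:11166149-11166398), Zscan4f on the plus strand (chr7:11397665-11397914) and Zfp352 on the plus strand (chr4:90218570-90218819).
Zscan4c: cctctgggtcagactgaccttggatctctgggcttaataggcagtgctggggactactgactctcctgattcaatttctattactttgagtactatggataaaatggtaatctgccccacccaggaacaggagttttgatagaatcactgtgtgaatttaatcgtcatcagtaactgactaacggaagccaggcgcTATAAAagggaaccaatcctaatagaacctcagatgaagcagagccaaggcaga
Zscan4d: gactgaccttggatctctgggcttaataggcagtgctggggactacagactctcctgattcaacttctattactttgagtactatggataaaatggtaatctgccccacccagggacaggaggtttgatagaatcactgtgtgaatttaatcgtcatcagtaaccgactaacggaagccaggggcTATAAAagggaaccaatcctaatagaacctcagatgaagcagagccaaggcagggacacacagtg
Zscan4f: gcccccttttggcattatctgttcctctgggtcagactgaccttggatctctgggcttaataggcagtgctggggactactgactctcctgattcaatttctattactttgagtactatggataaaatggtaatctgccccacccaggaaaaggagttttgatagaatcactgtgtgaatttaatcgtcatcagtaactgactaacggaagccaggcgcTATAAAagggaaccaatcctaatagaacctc
Zfp352: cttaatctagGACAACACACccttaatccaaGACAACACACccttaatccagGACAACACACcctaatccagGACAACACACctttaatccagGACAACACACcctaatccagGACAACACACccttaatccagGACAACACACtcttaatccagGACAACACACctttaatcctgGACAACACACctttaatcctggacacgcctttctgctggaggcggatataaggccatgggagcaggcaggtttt

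After alignment the upstream sequences of Zscan4c and Zscan4f differed at 1 of 227 bases, those of Zscan4c and Zscan4d at 7 of 239 and those of Zscan4d and Zscan4f at 7 of 216. The TATAAA element stood once on the gene strand of each Zscan4 copy and on neither strand of the Zfp352 sequence. Its first base lay 54 bases before the annotated start of Zscan4c, 65 before that of Zscan4d and 31 before that of Zscan4f. Of 32851 RefSeq sequences of the same length, 7.59% held TATAAA on the gene strand and 12.4% on either strand. GACAACACAC occurred 9 times before Zfp352, on the gene strand, while 0.0426% of the sequences held it on either strand and 1 of 32851 held it 5 or more times. It was searched as the most frequent 10-base word of that sequence. Both searches were chosen after the sequences were seen, and a match or its lack only describes these letters in this window.

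The transcripts were as similar. Over aligned bases of the longest GENCODE M21 transcript of each gene, identity was 99.5% between Zscan4c and Zscan4f, 97.8% between Zscan4d and Zscan4f and 97.2% between Zscan4c and Zscan4d. Of all 50-base windows of the transcript, 95.3% in Zscan4f, 85.5% in Zscan4c and 49.6% in Zscan4d had an exact copy in a transcript of another gene. The same share was 7.09% for Zfp352 and 2.01% for Tmem92. With 100-base windows it was 89.5% for Zscan4f, 72.8% for Zscan4c, 29.6% for Zscan4d, 0.643% for Zfp352 and 0 for Tmem92. Counts of Zscan4c and Zscan4f therefore rest on short stretches of unique sequence if reads with several matches were dropped, and they are uncertain between copies if such reads were kept. How the authors treated such reads is not given in the sources used here. Tmem92 and Zfp352 share little of their sequence.

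**Figure D1:**
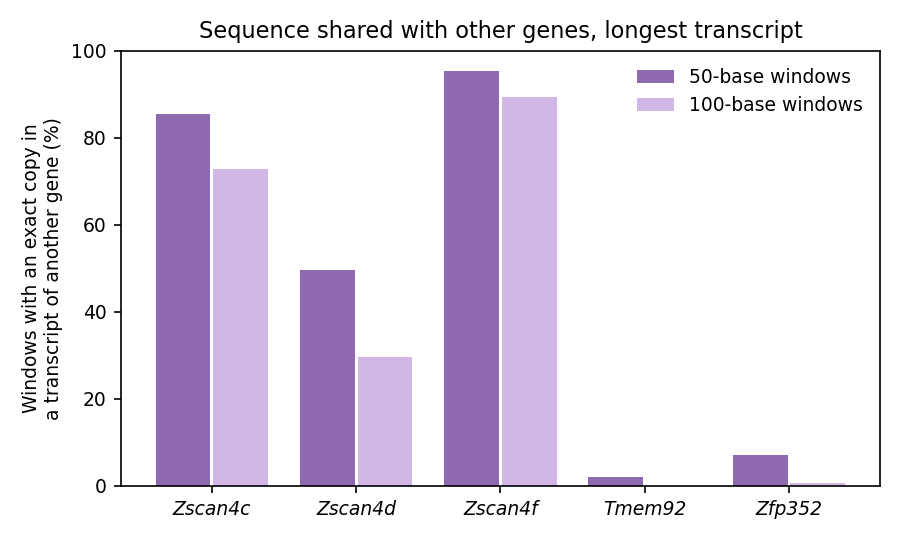
Share of windows of 50 or 100 bases (%) in the longest transcript of each gene that occur exactly in a transcript of another gene in GENCODE M21. Zscan4f and Zscan4c are mostly shared sequence at both lengths, Zscan4d less so, and Tmem92 and Zfp352 are under 8% at both.

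Tmem92, the Zscan4 copies and Zfp352 did not all behave alike. Tmem92 and each of the 3 Zscan4 copies had lower counts in both dKO libraries than in both wt libraries, at between 0.212 and 0.335 of the wt level. Zfp352 had about the same counts in both genotypes and varied more between replicates than between genotypes. All were low, with at most 54 counts in any library. Below, each ratio is summed dKO counts over summed wt counts, scaled by library totals, with an exact (Clopper-Pearson) 95% interval that covers counting error only; PCR reads without molecular identifiers are not independent molecules. In bulk RNA, fewer cells in the 2-cell-like state and less RNA per such cell cannot be told apart.

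Zscan4c (ENSMUSG00000054272, chromosome 7, 11591071 to 11595896 in the positions of the table) had 8 and 8 counts in the dKO libraries, against 32 and 31 in the wt libraries. Its replicates were close to each other within each genotype and the genotypes did not overlap. In dKO the counting interval of replicate 2 over replicate 1 was 0.329 to 3.08, so this closeness is not read as a measure of spread. The ratio of dKO over wt was 0.212 (interval 0.115 to 0.372). In CPM, the count scaled by library size with TMM factors, its level was 0.484 ± 0.010 in dKO and 2.27 ± 0.33 in wt cells (SD, n = 2 each).

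Zscan4d (ENSMUSG00000090714, chromosome 7, 11746992 to 11751497), the copy with the most unique sequence, had 6 and 16 counts in the dKO libraries, against 51 and 30 in the wt libraries. The replicates lay further apart than those of Zscan4c, and still the higher dKO library was below the lower wt library. Its ratio was 0.227 (0.135 to 0.368), and leaving out dKO replicate 1 gave 0.332, dKO replicate 2 gave 0.124, wt replicate 1 gave 0.329 and wt replicate 2 gave 0.167. Its level was 0.661 ± 0.414 CPM in dKO and 2.98 ± 1.42 CPM in wt cells (SD, n = 2 each).

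Zscan4f (ENSMUSG00000070828, chromosome 7, 11983264 to 11988090) was the lowest of the copies, with 7 and 5 counts in the dKO libraries, against 18 and 12 in the wt libraries. Its genotypes did not overlap, and its ratio of 0.335 had a wide interval (0.156 to 0.673). Summed over the 3 copies, which is less affected by how reads were divided among them, there were 21 and 29 counts in the dKO libraries, against 101 and 73 in the wt libraries. The ratio of that sum was 0.240 (0.172 to 0.331).

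Tmem92 (ENSMUSG00000075610, chromosome 11, 94638531 to 94644017), which encodes a transmembrane protein used as a marker of the 2-cell-like state, had 14 and 12 counts in the dKO libraries, against 46 and 54 in the wt libraries. Its ratio was 0.218 (0.136 to 0.338), and leaving out any single library gave 0.202 to 0.233. Its level was 0.787 ± 0.102 CPM in dKO and 3.57 ± 0.03 CPM in wt cells (SD, n = 2 each). Between the wt libraries replicate 2 was at 1.01 of replicate 1, with a counting interval of 0.671 to 1.54. The small SD is therefore not read as a measure of spread.

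Zfp352 (ENSMUSG00000070902, chromosome 4, 89885511 to 89892393), a zinc finger gene transcribed in early embryos, had 38 and 25 counts in the dKO libraries, against 40 and 20 in the wt libraries. The genotypes overlapped. The ratio was 0.878 (0.607 to 1.27), and leaving out wt replicate 1 gave 1.41, leaving out wt replicate 2 gave 0.611. Between the wt libraries themselves, replicate 2 was at 0.432 of replicate 1 (0.239 to 0.756), a larger gap than that between the genotypes.

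**Figure D2:**
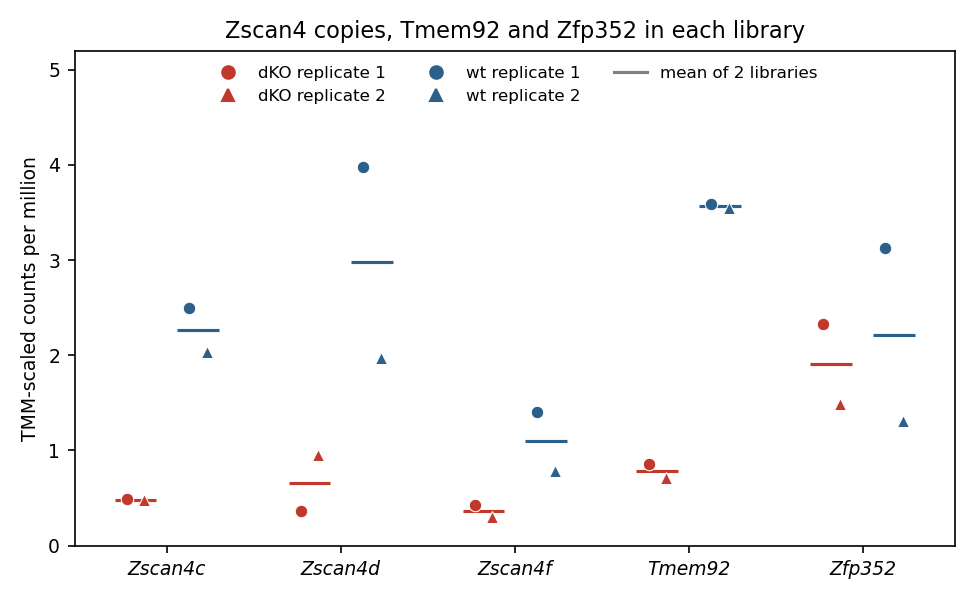
TMM-scaled CPM of the 5 genes in each library, with replicates 1 and 2 as circles and triangles and the mean of each genotype as a bar. Both dKO libraries lie below both wt libraries for the Zscan4 copies and Tmem92, and the genotypes overlap for Zfp352.

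The fitted log2 fold changes (dKO minus wt, edgeR) were -2.21 for Zscan4c, -2.17 for Tmem92, -2.15 for Zscan4d, -1.56 for Zscan4f and -0.20 for Zfp352. Their median was -2.15, and the median over all 14027 tested genes was -0.002. All 5 passed the filter on low counts, which can be passed on the libraries of 1 genotype alone. Zscan4c, Zscan4d and Zscan4f would not have passed it on their dKO libraries alone. The genotypes did not overlap, with lower values in dKO, for 4 of the 5, against 16.3% of all tested genes and 18.7% of the 1844 tested genes whose mean CPM lay within the range of these genes (0.730 to 2.18). Since the genes were chosen on this contrast, nothing is read from that count or from their median. A level at least 2-fold lower without overlap was found for 1.78% of all tested genes and 7.16% of those of similar level. The median absolute log2 fold change was 0.39 among genes of similar level and 0.16 among all, so large fold changes were more common at such low counts.

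Per length of exon sequence, the order of levels differed between the genotypes. Unique 50-base windows made up 4.66% of Zscan4f, 14.5% of Zscan4c and 50.4% of Zscan4d, against 98.0% of Tmem92 and 92.9% of Zfp352. If reads with several matches were dropped, genes with little unique sequence would count low. The order is therefore not read as one of transcript abundance. In dKO cells Zfp352 was highest at 0.839 CPM per kb, above Tmem92 (0.360), Zscan4d (0.291), Zscan4c (0.213) and Zscan4f (0.186). In wt cells Tmem92 was highest at 1.63 CPM per kb, followed by Zscan4d (1.31), Zscan4c (0.996), Zfp352 (0.975) and Zscan4f (0.560). In wt cells the libraries of Zscan4d ran from 0.867 to 1.75 CPM per kb, a range that held Tmem92 and Zscan4c, and those of Zfp352 from 0.577 to 1.37, so these neighbours did not differ beyond their replicates. In dKO cells Zfp352, at 0.654 and 1.02 CPM per kb, did not overlap with any of the other 4, while Zscan4d, at 0.162 and 0.420 CPM per kb, overlapped with Tmem92, Zscan4c and Zscan4f.

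The surroundings of the Zscan4 copies were nearly silent apart from rows in or near the cluster. Zscan4c, Zscan4d and Zscan4f span 397 kb in the positions of the table. Within 500 kb of them the table lists 27 rows, of which 18 had 0 counts in every library, including all 12 rows of vomeronasal receptor genes and pseudogenes (Vmn1r). Rows named Zscan4a, Zscan4b, Zscan4e or for a Zscan4 pseudogene were not analysed here. There were 5 rows with at least 10 counts and no symbol in the reference, and summed they had 29 and 23 counts in the dKO libraries, against 49 and 43 in the wt libraries, a ratio of 0.473 (0.330 to 0.671). In CPM 4 of the 5 were lower and 1 was higher in dKO without overlap, where 16.3% of all tested genes were lower and 17.3% higher; 2 of the 5 were tested. The first, ENSMUSG00000070826, started at 509 kb from the start of Zscan4c and had 9 and 2 counts in the dKO libraries, against 26 and 15 in the wt libraries (edgeR log2 fold change -2.14, adjusted p = 0.844). The other tested row, ENSMUSG00000091026, started at -349 kb from the start of Zscan4c and had the opposite sign, with 11 and 15 counts in the dKO libraries, against 3 and 3 in the wt libraries (1.83, adjusted p = 0.779). These rows were singled out after their values were seen, and no gene name was given to them.

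**Figure D3:**
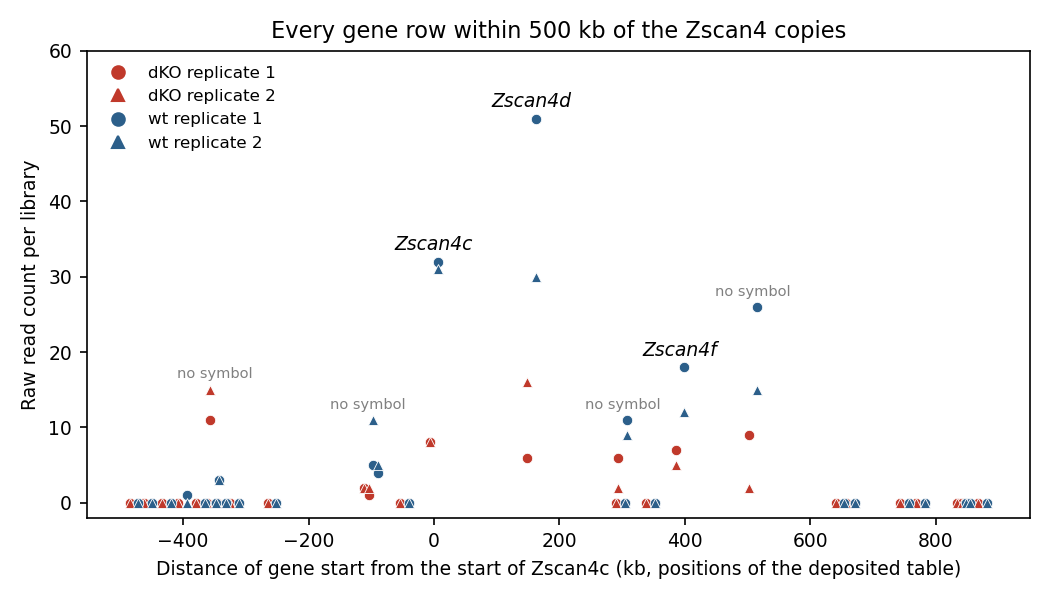
Raw counts in each library of every row within 500 kb of the Zscan4 copies, against the distance of the gene start from that of Zscan4c (kb, positions of the table); dKO points are drawn slightly to the left of wt points. Counts are found at the 3 Zscan4 copies and 6 rows with no symbol, and are 0 elsewhere in the stretch.

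Within 500 kb of Tmem92 the table lists 42 other rows, of which 24 had at least 10 counts and 21 were tested. Their median log2 fold change was -0.10, with 16 negative and 5 positive, where 7061 of all 14027 tested genes were negative and 6966 positive. In edgeR 0 passed and 1 had an unadjusted p under 0.05, where 2.71% of all tested genes were lower and 2.87% higher at that level. In 6 of the 21 the dKO libraries were lower and in 2 higher without overlap, where 16.3% of all tested genes were lower and 17.3% higher. The nearest rows with at least 10 counts, up to 2 on each side, were these. Gm11545, 16.0 kb away, had 9 and 27 counts in the dKO libraries, against 10 and 23 in the wt libraries, and a log2 fold change of -0.09. Cdc34b, 34.2 kb away, had 3 and 9 counts in the dKO libraries, against 11 and 11 in the wt libraries (-1.11), and Gm11543, 45.5 kb away, had 0 and 4 in the dKO libraries, against 5 and 8 in the wt libraries, and was not tested. Col1a1, a collagen gene of fibroblasts, lay 154 kb away with 21 and 20 counts in the dKO libraries, against 20 and 43 in the wt libraries (-0.83). The adjusted p in edgeR was 0.942 to 0.995 for the 3 of these that were tested. No row with at least 10 counts lay within 500 kb of Zfp352.

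Other genes of the 2-cell-like state were examined as a list that was chosen with earlier results of these data known. Of 48 listed genes 33 had a row, 24 had at least 10 counts over the 4 libraries and 13 passed the filter on low counts. Among the 13, 12 had negative and 1 had a positive log2 fold change, with a median of -1.26 against -0.002 over all tested genes. None passed an adjusted p of 0.05 in edgeR, where 0.0855% of all tested genes did (0.0499% lower and 0.0356% higher in dKO), and 3 had an unadjusted p under 0.05, all lower in dKO, where 2.71% of all tested genes were lower and 2.87% higher at that level. DESeq2 without a filter and edgeR without a filter each called 1 of them, Gm2016. The genotypes did not overlap for 7 of the 13, all lower in dKO, where 16.3% of all tested genes were lower without overlap. The filter can be passed on the libraries of 1 genotype alone. Sp110, Duxbl1, Gm8300, Usp17la, Usp17lc and Usp17le would not have passed it on their dKO libraries alone, and all are among the 7 without overlap. The same holds for the filter and Pramel6 and Pramel7, which overlapped. Nothing is read from the signs, the median or the overlap of these 13. Without a filter the median over 30 rows was -1.25.

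The lowest ratios among tested genes were those of 2 predicted genes of chromosome 12 and of Sp110. Gm2016 had 13 and 13 counts in the dKO libraries, against 64 and 53 in the wt libraries, a ratio of 0.186 (0.117 to 0.286). In edgeR it had -2.42 on the log2 scale with SE 0.40 and an adjusted p of 0.292. Gm8300 had 13 and 10 counts in the dKO libraries, against 48 and 35 in the wt libraries, a ratio of 0.232 (0.139 to 0.372). In 50-base windows Gm2016 shared 81.3% of its transcript and Gm8300 26.6% with other genes, among them each other and Gm5662, so these too are copies whose counts are uncertain. Gm5662 had 3 and 4 counts in the dKO libraries, against 24 and 8 in the wt libraries. Sp110, which encodes a nuclear body protein, had 10 and 4 counts in the dKO libraries, against 27 and 27 in the wt libraries, a ratio of 0.217 (0.111 to 0.396), and shared 53.8% of its windows. The genotypes did not overlap for any of these 4 genes, where 16.3% of all tested genes were lower without overlap. Gm5662 was not tested, and Gm8300 and Sp110 would not have passed the filter on their dKO libraries alone. Gm2016, Gm8300 and Sp110 were put first for their low ratios, so nothing is read from that count.

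Usp17l genes, a family of deubiquitinating enzymes, lie on chromosome 7. At each of 5 copies CPM was lower in both dKO libraries than in both wt libraries, as it was for 16.3% of all tested genes. Usp17ld, with 6 and 2 counts in the dKO libraries, against 6 and 6 in the wt libraries, was tied in raw counts. In 50-base windows Usp17la shared 20.4%, Usp17lc 44.7% and Usp17le 30.8% with other genes, among them other Usp17l genes. The copies are therefore not read as separate results. Summed over the 5, counts were 46 and 39 in the dKO libraries, against 110 and 65 in the wt libraries, a ratio of 0.406 (0.310 to 0.529). The ratios of the single copies ran from 0.314 for Usp17lb to 0.558 for Usp17ld, and those of the 3 tested, Usp17la, Usp17lc and Usp17le, from 0.408 to 0.418 (edgeR adjusted p = 0.888 to 0.907). Duxf3 itself had 1 and 1 counts in the dKO libraries, against 8 and 5 in the wt libraries, a ratio of 0.129 (0.0141 to 0.568). It was too low to be tested and shared 58.9% of its 50-base windows with other genes. Ubtfl1 had 0 and 1 counts in the dKO libraries, against 5 and 7 in the wt libraries, a ratio of 0.0697 (0.00163 to 0.471). Gm12794 had 3 and 1 counts in dKO, against 7 and 14 in wt, and Pramef25 had 1 and 1 in dKO, against 5 and 3 in wt. At such depths a count of 0 allows up to 3 counts, or 0.184 CPM in dKO replicate 1. Arg2, a mitochondrial arginase, had a ratio of 0.418, Duxbl1 of 0.569 and Tdpoz4 of 0.558. Their genotypes did not overlap in CPM, where 16.3% of all tested genes were lower without overlap. The intervals of Duxbl1, Tdpoz4, Usp17ld and Pramef25 included 1.

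Not every listed gene was lower. Pramef8 (690 and 1047 counts in the dKO libraries, against 541 and 894 in the wt libraries) and Pramef12 (454 and 870 in dKO, against 409 and 782 in wt), of the PRAME family, had log2 fold changes of 0.05 and -0.07. Zfp750 had -0.21 and overlapped between genotypes, as did Duxbl3 and BC080695 at under 15 counts each per library. Pramel6 (6 and 23 counts in the dKO libraries, against 9 and 57 in the wt libraries), Pramel7 (9 and 34 in dKO, against 11 and 57 in wt) and Calcoco2 (337 and 2210 in dKO, against 663 and 2265 in wt) differed more between replicates 1 and 2 than between genotypes. Replicate 2 was the higher in both genotypes for these 3 genes.

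**Figure D4:**
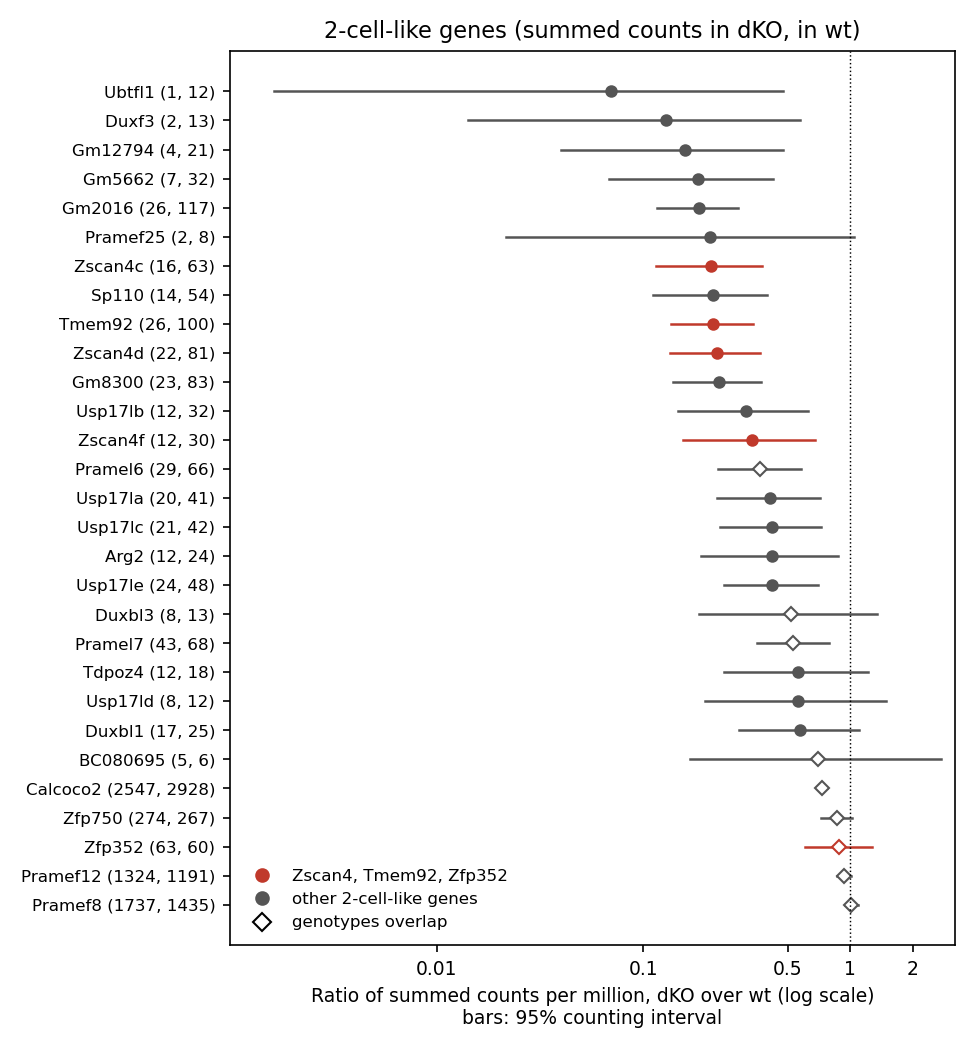
Ratio of dKO over wt counts scaled by library totals (log scale) with its 95% counting interval, for the 5 genes (red) and the other 2-cell-like genes with at least 10 counts (grey); summed dKO and wt counts stand in brackets, and open diamonds mark genotypes that overlap. Tmem92, Zscan4c, Zscan4d, Sp110, Gm2016 and Gm8300 lie near 0.2, and Zfp352, Pramef8 and Pramef12 near 1.

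Factors that are reported to favour the 2-cell-like state did not pass the test. Of 9 listed genes 8 were tested, with a median log2 fold change of -0.05, and 0 passed in edgeR, where 0 also had an unadjusted p under 0.05. Dppa2 and Dppa4, which act upstream of Dux, had 131 ± 21.8 and 99.6 ± 12.9 CPM in dKO cells, against 149 ± 18.1 and 101 ± 18.7 CPM in wt cells (SD, n = 2 each). Trp53 had a log2 fold change of -0.07, Nelfa of -0.12 and Dppa3 of -0.35. Tbx3, reported to act on Zscan4, had 1430 and 5234 counts in the dKO libraries, against 1316 and 4330 in the wt libraries, so that replicates differed far more than genotypes. Dppa2, Dppa4, Nelfa and Dppa3 were named after their values were seen.

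Factors reported to hold the state back were not called either. All 54 had a tested row, with a median of 0.04, and 0 passed in edgeR. There 2 higher and 1 lower had an unadjusted p under 0.05, where 2.87% of all tested genes were higher and 2.71% lower. Trim28, a corepressor of retroviral elements, had 2209 ± 51.2 CPM in dKO and 2223 ± 11.4 CPM in wt cells (SD, n = 2 each), and nucleolin (Ncl) had a log2 fold change of 0.01. The most negative were Rcor2, of a histone demethylase complex, at -0.63 (edgeR adjusted p = 0.791), and the DNA methyltransferase gene Dnmt3b at -0.35. The most positive was Mga, of a Polycomb complex that also holds Max, at 0.56 (SE 0.12, edgeR adjusted p = 0.448), with 672 ± 28.1 CPM in dKO and 454 ± 12.1 CPM in wt cells. Smchd1, a chromatin protein of the inactive X chromosome, followed at 0.41 (adjusted p = 0.888). These 4 genes were named after their values were seen as the 2 most extreme in each direction; the genotypes overlapped for Dnmt3b and not for the others. Mga passed in DESeq2 without a filter (adjusted p = 0.0493). Among these 54 genes 12 were higher and 4 lower in dKO without overlap, where 17.3% of all tested genes were higher and 16.3% lower.

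Telomere and meiotic recombination genes, which Zscan4 is known to act with, had a median of 0.06 over 31 tested genes, and 0 passed in edgeR. There 1 higher and 1 lower had an unadjusted p under 0.05, where 2.87% of all tested genes were higher and 2.71% lower. Dkc1, a component of telomerase, had 0.17 and the helicase gene Blm 0.02. Terf1, a telomere-binding protein of shelterin, had 164 ± 6.4 CPM in dKO and 233 ± 28.8 CPM in wt cells (-0.51, SE 0.13, adjusted p = 0.674, n = 2 each, edgeR) and was the most negative of the list, while Sycp2, of the synaptonemal complex, was the most positive (0.89, adjusted p = 0.907). Both were named after their values were seen. Other SCAN domain genes had a median of -0.04 over 28 tested, with Peg3 at -0.06 and Zfp110 at 0.28, and 0 passed. Among the 28, 1 higher and 4 lower had an unadjusted p under 0.05, where 2.87% of all tested genes were higher and 2.71% lower. The extremes were Zkscan2 at 0.49 and Zscan5b at -1.35, both named after their values were seen, and Zscan5b had 10 and 20 counts in the dKO libraries, against 28 and 37 in the wt libraries.

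Oocyte and early embryo genes had no common direction. Of 8 tested, 4 had negative and 4 positive log2 fold changes, and 0 passed in edgeR. There 2 had an unadjusted p under 0.05, both higher in dKO, where 2.87% of all tested genes were higher and 2.71% lower. Ooep, of the subcortical maternal complex, had 1052 and 1945 counts in the dKO libraries, against 1470 and 2367 in the wt libraries (-0.58), and Spin1 had 0.07. Khdc3, of the same complex, was the most negative at -1.22 (edgeR adjusted p = 0.911), and Nlrp4f was the most positive; both were named after their values were seen. Nlrp4f had 792 and 1701 counts in the dKO libraries, against 70 and 141 in the wt libraries (3.34, SE 0.44, adjusted p = 0.217). Nlrp4f passed without dKO replicate 1, without dKO replicate 2 and in DESeq2 without a filter.

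**Figure D5:**
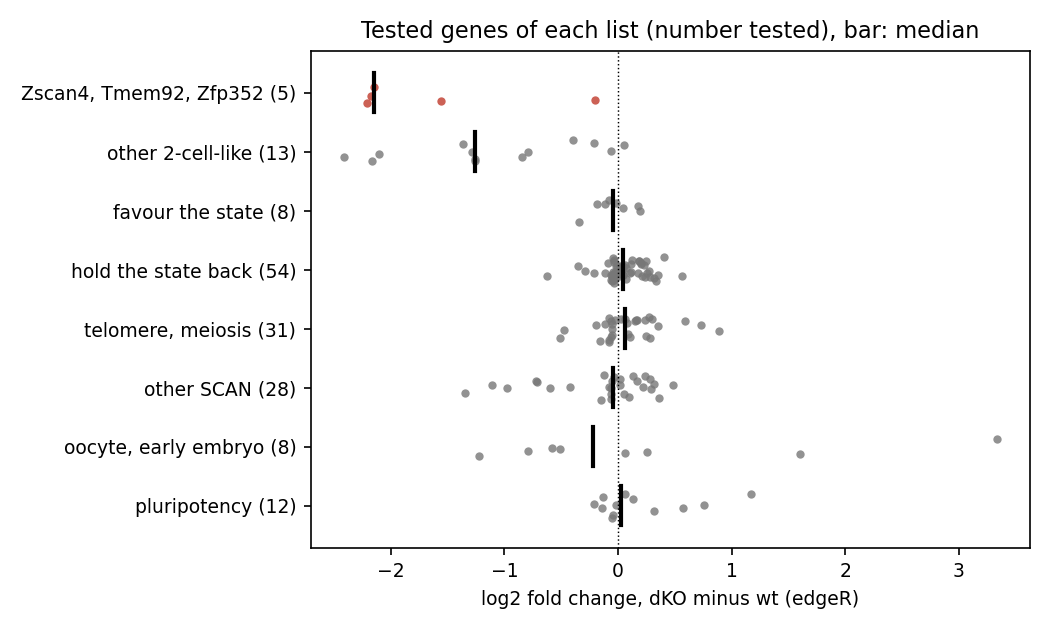
Log2 fold change (dKO minus wt, edgeR) of each tested gene of 8 lists, with the median as a bar. Medians are -2.15 for the 5 genes, -1.26 for the other 2-cell-like genes and -0.22 for the oocyte and early embryo genes. Those of the regulators, telomere, SCAN and pluripotency lists lie within 0.1 of 0. The 5 genes were chosen on this contrast and the lists with earlier results known. Nothing is read from the difference between lists.

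The libraries were those of pluripotent cells by their markers, and the targeted transcripts were low in both dKO libraries. Lmnb1 had 69 and 101 counts in the dKO libraries, against 8538 and 8321 in the wt libraries, and Lmnb2 had 41 and 55 in the dKO libraries, against 1343 and 1787 in the wt libraries. Both passed in edgeR (adjusted p = 0.00094 each). The 12 pluripotency markers summed to 7819 and 8218 CPM in the dKO libraries, against 6919 and 6788 CPM in the wt libraries, and none was at 0; these sums did not overlap. Zfp42 had the largest log2 fold change of the 12 (1.17, edgeR adjusted p = 0.0886), and without it the sums were 6371 and 6786 CPM in dKO, against 6254 and 6175 CPM in wt. Of the 12, 6 were positive and 6 negative with a median of 0.02, among them L1td1 (0.14), Pou5f1 (-0.01), Nanog (-0.04) and Utf1 (-0.21). Pou5f1, Nanog and Utf1 were named after their values were seen. Summed fibroblast markers were 23.1 and 42.9 CPM in the dKO libraries, against 24.6 and 57.4 CPM in the wt libraries, with Acta2 at -0.47 and Fbn1 at 0.26. Of the 9 tested, 6 were negative and 3 positive, with a median of -0.47. The extremes, named after their values were seen, were Pdgfrb at -3.26 and Twist1 at 0.76. Pdgfrb had 1 and 7 counts in the dKO libraries, against 13 and 56 in the wt libraries. Primitive endoderm markers summed to 510 and 504 CPM in the dKO libraries, against 435 and 515 CPM in the wt libraries, with Lama1 at 0.33 and Lamb1 at -0.03. Of the 13 tested, 7 were negative and 6 positive, with a median of -0.03. Trophoblast markers summed to 292 and 576 CPM in the dKO libraries, against 449 and 754 CPM in the wt libraries, with Krt8 at -0.65 and Krt18 at -0.56. Of the 11 tested, 9 were negative and 2 positive, with a median of -0.32. These 3 sums overlapped between the genotypes, none of their markers was at 0 in all libraries, 0 of them passed in edgeR, and their part in the levels of the 2-cell-like genes was not tested.

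The profile over the 4 libraries of the 5 genes summed was -0.66 and -0.84 in the dKO libraries and 1.05 and 0.45 in the wt libraries, as log2 CPM minus its mean. Zfp352 gave 38 and 25 of the 73 and 66 dKO counts in that sum. The 5 tested genes nearest to this profile, by the root-mean-square distance of the same profile over 4 libraries, had distances of 0.0828 to 0.174. Of these 2 carry no symbol in the reference. ENSMUSG00000071217, on chromosome 12, covers the positions of Gm8300 and Gm5662 of the 2-cell-like list. It had 23 and 18 counts in the dKO libraries, against 50 and 38 in the wt libraries. ENSMUSG00000090893 had 7 and 7 in dKO, against 21 and 18 in wt. The others were Pdlim4 (19 and 14 counts in the dKO libraries, against 39 and 37 in the wt libraries), Nat8f2 (5 and 5 in dKO, against 17 and 10 in wt) and Slc9a3r2 (128 and 137 in dKO, against 280 and 273 in wt). With 4 libraries many profiles lie close together, and the ranking is a description.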

How the data were processed

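RNA from 2 dKO and 2 wt samples was extracted with Trizol; TruSeq RNA kits gave the libraries, per the labels. The authors deposited raw read counts per Ensembl gene and library. The submitters' processing notes name TopHat2 2.0.6, TopHat and HTSeq without saying what each did. Build, annotation and use of strand: not given in the sources used here, so overlapping and antisense genes are uncertain. The last gene end on chromosome 1 is 197054592 in the table, against 195323493 in GENCODE M21, so positions are the table's own. Symbols were matched by gene ID (32919 of 37991 rows).

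After filterByExpr and TMM scaling, the robust quasi-likelihood F test of edgeR 4.0.16 (R 4.3.3) was run on these counts with genotype as the only term, Benjamini-Hochberg over 14027 genes, threshold 0.05. CPM are TMM-scaled. Across genes 12 passed (7 lower, 5 higher), and 782 had an unadjusted p under 0.05. Promoters and transcripts were aligned with mafft 7.526. In simulated counts of dKO against wt over 14027 genes, 50 genes were changed per fold, all averaging 1 CPM or more. Recovery was 10% at 1.5-fold, 50% at 2-fold, 94% at 4-fold and 88% at 8-fold, and 22 of 143 calls were false. On the measured counts Lmnb1 and Lmnb2 passed in edgeR. Gm2016 (log2 fold change -2.42, adjusted p = 0.292) and Nlrp4f (3.34, adjusted p = 0.217) did not pass there. The simulated rates are therefore not read as the power of the test on the measured counts.

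The members and lists were chosen with earlier results of these data known. Named were the 5 genes, 2-cell-like rows with at least 10 counts, up to 2 such neighbours on each side, the lamin genes, the 5 nearest profiles and, per other list, called genes or else the 2 with the highest CPM. Replicates are called biological in the series' design; whether they were separate cultures is not given, so p-values measure only the spread between them. Exact permutation of single values cannot reach 0.05 with 2 replicates per genotype and was not used. Alternatives were other scalings, filters, thresholds and tools (DESeq2 1.42.0, limma 3.58.1), a replicate block and each library left out.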

Additional observations from a re-analysis of the deposited data

How the results depend on the processing

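Across all genes 12 passed. Without a low-count filter there were 80, DESeq2 (unfiltered) gave 92, limma-voom 5, the stricter threshold of 0.01 left 4, and leaving out any library gave 18 to 27 (19 without wt replicate 1 and 27 without wt replicate 2), where the lone library of a genotype is assumed to vary like the other genotype. Same-numbered libraries deviated together (r = 0.65 across genes); the labels do not say that numbers pair samples. With a replicate block 1299 genes passed. Of the other 2-cell-like genes, 0 passed with the settings of the report, 1 without a filter and 1 by DESeq2 (Gm2016 both times), 4 with the replicate block, all lower in dKO (Gm2016, Gm8300, Sp110 and Pramel6), and 0 with any library left out. The block also called 6 of the factors that hold the state back (4 higher, 2 lower), 7 SCAN genes (2 higher, 5 lower), 4 oocyte genes (2 each way), 3 telomere genes (2 higher, 1 lower), and of the cell type markers 4 of pluripotency and 2 of endoderm higher, 4 of trophoblast and 2 of fibroblasts lower. The median log2 fold change of the 5 genes ran from -2.18 to -1.57 with 1 library left out, and that of the other 2-cell-like genes from -1.64 to -0.97 (over 16 to 19 genes, since the filter then passes others). The ratio of all 5 genes summed was 0.348, 0.288 to 0.425 with 1 library left out, 0.240 for the Zscan4 copies alone, 0.465 for Tmem92 with Zfp352, and 0.232 without Zfp352, a choice made after seeing the values. The cause of these moves was not tested. Depth limits Duxf3, Ubtfl1 and similar rows, which have at most 15 counts in all.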
